A study of Rattus norvegicus with 320 samples.

Results

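The miR-30 family is a group of microRNAs (miRNAs) that share the same bases at their 5′ end. Its members here were the 5 rows of the deposited count table named rno-miR-30a-5p, rno-miR-30b-5p, rno-miR-30c-5p, rno-miR-30d-5p and rno-miR-30e-5p, out of 616 miRNAs in the table. They were chosen by name and not by their values.

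The study sequenced small RNA from organs of female and male rats of the Fischer 344 strain, at 2, 6, 21 and 104 weeks of age. Adrenal gland (Adr), brain (Brn), heart (Hrt), kidney (Kdn), lung (Lng), liver (Lvr), skeletal muscle (Msc), spleen (Spl) and thymus (Thm) came from females and males, testis (Tst) from males and uterus (Utr) from females. Each of the 80 groups of organ, sex and age held 4 libraries from 4 rats, and each rat gave 10 organs, so libraries of different organs share animals. The labels name no treatment, every rat was of the same inbred strain, and each library was made from the ground whole organ, which mixes all of its cell types. Of 320 libraries, 318 were used, since the study set aside replicate 3 of male brain at week 6 and replicate 4 of female spleen at week 104.

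The counts summed to between 315550 and 10571766 per library, with a median of 2856968.5 and organ medians from 1040989 in liver to 6436571.5 in uterus. Levels are given as CPM, a count divided by the library's total and scaled to a fixed total, so a level is a share of all miRNA counts and falls when another miRNA rises. The lowest count of a member in a kept library was 517, for miR-30b-5p. The organ labels were checked with 13 pairings of an organ and a defining miRNA. In 11 of them the median was highest in the labelled organ, and kidney was the exception, where miR-192-5p and miR-194-5p were higher in liver (median 210319 against 61033 CPM, and 6366 against 1298 CPM). In testis, the germ cell marker miR-34c-5p was as low as 40.6 CPM in 1 library of week 104.

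A miRNA is cut from a hairpin, whose 5′ and 3′ strands are named 5p and 3p. It binds messenger RNAs mainly through its seed, bases 2 to 8, and lowers the protein made from them, so miRNAs with the same seed have largely overlapping targets. The miR-30 family is broadly expressed and is best known from heart, kidney and muscle, where it has been linked to the control of connective tissue growth, differentiation and autophagy. The sequences below, with the seed in capitals, are shown because the members differ from each other by as little as 1 base and because the 3p strands tell the 2 miR-30c hairpins apart, which the 5p strand cannot.
miR-30a-5p: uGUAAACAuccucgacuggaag
miR-30e-5p: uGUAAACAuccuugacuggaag
miR-30c-5p: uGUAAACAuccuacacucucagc
miR-384-5p: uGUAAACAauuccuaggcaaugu
miR-30a-3p: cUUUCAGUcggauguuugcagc
miR-30c-1-3p: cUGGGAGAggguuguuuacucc
miR-30c-2-3p: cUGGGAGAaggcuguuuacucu

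These sequences are from RefSeq (build GRCr8), where 3 of the 5 members had an entry. Of the 616 miRNAs in the deposited table, 6 had the seed GUAAACA, namely the 5 members and miR-384-5p. Over the 22 bases of miR-30a-5p, miR-30e-5p differed at 1 base, C13U counted from the 5′ end of miR-30a-5p, and miR-30d-5p also differed at 1. miR-30b-5p and miR-30c-5p had the same first 18 bases and differed at 4 of 22.

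The hairpins lie in clusters. Mir30a (miR-30a-5p at chr9:33233946-33233967, plus strand) and Mir30c2 (miR-30c-5p at chr9:33253695-33253717, plus strand) are 19670 bases apart. Mir30c1 (miR-30c-5p at chr5:139634505-139634527, minus strand) and Mir30e (miR-30e-5p at chr5:139637504-139637525, minus strand) are 2906 bases apart, within the span of Nfyc, which encodes a subunit of a transcription factor. Mir30b and Mir30d are also neighbours. miR-30c-5p is thus made from a hairpin on chromosome 9 and another on chromosome 5, and its count is the sum of both.

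The members were among the most abundant miRNAs of the table. Over 318 libraries the mean was 43718 CPM for miR-30a-5p (rank 7 of 616), 15491 CPM for miR-30d-5p (rank 15), 13469 CPM for miR-30e-5p (rank 20), 5994 CPM for miR-30c-5p (rank 25) and 1769 CPM for miR-30b-5p (rank 51). Together they made up 8.04% of the counts, from 1.99% on average in uterus to 14.8% in lung. Reads were matched to miRBase with fewer than 2 mismatches, so a read of miR-30a-5p can also match miR-30d-5p or miR-30e-5p, and how such reads were counted is not given in the sources used here. In the libraries where they were lowest relative to miR-30a-5p, miR-30e-5p stood at 3.67% of its count (lung, female, week 104) and miR-30d-5p at 3.93% (testis, week 104). Reads of miR-30a-5p counted to these 2 members thus came to at most those shares of its count there. Reads of these members counted to miR-30a-5p, or reads left out, are not bounded by these values.

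Each member had its own order of organs, and uterus was the lowest of the 11 organs in CPM for all 5. miR-30a-5p was highest in lung, where its level ranged from 61998 to 155030 CPM with a median of 107994 CPM over 32 libraries. In uterus it ranged from 6756 to 11723 CPM with a median of 8951 CPM over 16 libraries. Every lung library was thus above every uterus library.
miR-30b-5p was highest in liver, from 1828 to 4081 CPM with a median of 3045 CPM. The next organ was lung, from 1649 to 3752 CPM with a median of 2421 CPM, and the 2 organs overlapped.
miR-30c-5p and miR-30e-5p were both highest in heart. miR-30c-5p there ranged from 7070 to 18768 CPM with a median of 11774 CPM, against 5919 to 10402 CPM with a median of 7826 CPM in brain. miR-30e-5p ranged from 19715 to 40818 CPM with a median of 30921 CPM in heart, and from 9212 to 24428 CPM with a median of 18060 CPM in thymus. In lung, where miR-30a-5p was highest, miR-30e-5p was 10th of the 11 organs, from 5141 to 9937 CPM with a median of 7908 CPM.
Among the members, miR-30d-5p had the narrowest spread over the 286 libraries of the 9 organs of both sexes, without testis and uterus, an SD of 0.49 on the log2 scale against 0.92 for miR-30a-5p, 0.60 for miR-30b-5p and 0.67 for each of the other two, and 1.62 for the median miRNA. It was highest in lung, with a median of 25234 CPM, and heart, with a median of 21746 CPM.

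**Figure D1:**
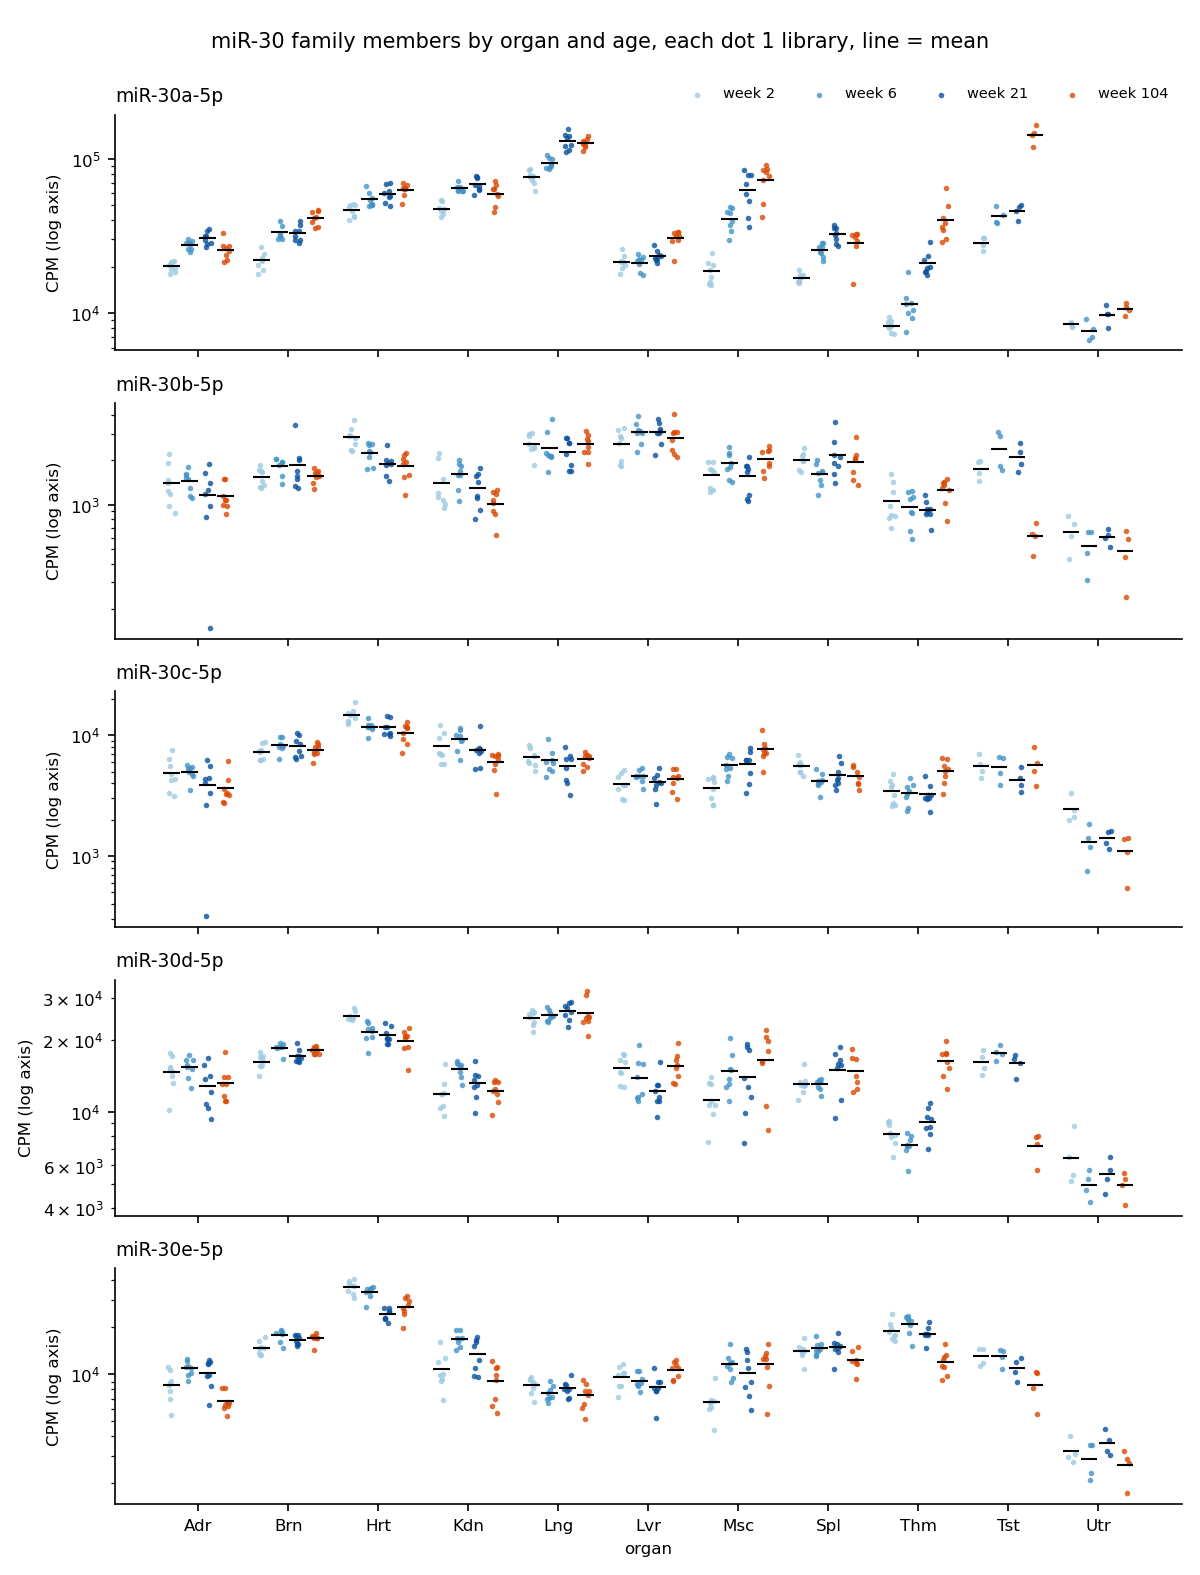
Level of each member in CPM (log axis) in every library, by organ and by age in weeks, with a line at the mean of the libraries. Lung is highest for miR-30a-5p and heart for miR-30c-5p and miR-30e-5p, uterus is lowest on average for each member, and miR-30a-5p in testis at week 104 lies between 118315 and 164081 CPM.

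Organs were compared with edgeR's quasi-likelihood test with TMM scaling, which sets the typical miRNA level with between libraries, and a difference was called at a Benjamini-Hochberg adjusted p under 0.05 and at least 1.5-fold. With 55 pairs of organs and 5 members, 142 of 275 member values were called at week 2, where 61.8% of all values were called. The counts were 177 at week 6 (background 61%), 169 at week 21 (59.2%) and 159 at week 104 (54.3%). Each count of the members was below or near its background. The pairs of organs share libraries. Scaling mattered here. Of the 647 calls, 419 were made the same way with scaling by library size alone, 220 were not called, and 8 were called the other way. With edgeR under TMM, library size and upper quartile scaling, and with DESeq2, 349 were called the same way. DESeq2 brings its own test as well as its own scaling.

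The heart results held under each of these 4 settings. miR-30e-5p in heart was called higher in 36 of 40 comparisons (10 other organs at 4 ages) and lower in 0 by TMM, and the numbers were 38 and 0 by library size, 35 and 0 by upper quartile, and 34 and 0 by DESeq2. miR-30c-5p in heart was called higher in 33, 35, 33 and 32 of the 40 and lower in 0, 0, 1 and 1. miR-30b-5p in liver was called higher in 32, 27, 31 and 32 and lower in none of them.
Lung was called higher for miR-30a-5p in 32, 38, 32 and 31 of 40 comparisons, and lower in 1, 0, 1 and 2. Against testis it was called higher at 3 ages and lower at 1 by TMM.
Brain did not have a stable place. miR-30a-5p in brain was called higher in 0 and lower in 28 of 40 comparisons by TMM, but higher in 9 and lower in 14 by library size and lower in 40 of 40 by upper quartile. The low place of uterus also depended on scaling, to a degree that differed between members. By library size miR-30a-5p in uterus was called lower in 38 of 40 comparisons, but by TMM in 27, and against thymus, the next organ by CPM, its TMM difference (thymus minus uterus) was −0.17 to 0.48 on the log2 scale and called at no age. By TMM uterus was called lower in 23 of 40 for miR-30b-5p, 30 for miR-30c-5p, 20 for miR-30d-5p and 32 for miR-30e-5p. By library size these were 38, 38, 37 and 40, and it was called higher in 0 for each of these members with both scalings. miR-143-3p took 44.4%, 47.3% and 44.2% of the uterus counts at weeks 6, 21 and 104, and its part was not tested. For miR-30d-5p, lung and heart differed by −0.03 to 0.16 on the log2 scale and were called at no age.

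miR-30a-5p was the leading member in most libraries, and its mean share was higher at week 21 than at week 2. Shares within the family compare members inside a library and do not depend on scaling between libraries. miR-30a-5p had the highest count of the 5 in 299 of 318 libraries, miR-30e-5p in 18 and miR-30d-5p in 1, a uterus library of week 2. All 18 libraries led by miR-30e-5p were thymus, with 8 of 8 at week 2, 8 of 8 at week 6 and 2 of 8 at week 21.
The mean share of miR-30a-5p was higher at week 21 than at week 2 in 11 of 11 organs, by 5.38 to 21.5 percentage points. In the same comparison the mean share of miR-30d-5p was lower in 11 organs, those of miR-30b-5p and miR-30c-5p in 10 and that of miR-30e-5p in 9. From week 21 to week 104 the mean share of miR-30a-5p was higher in 7 organs and lower in 4, with differences from −1.52 to 28.6 percentage points.
In skeletal muscle miR-30a-5p made up 44.7% of the family at week 2, 54.5% at week 6, 66.2% at week 21 and 65.9% at week 104. In brain, the shares were 35.4%, 41.7%, 42.9% and 48.2%. In lung they were 63.9%, 69.2%, 75.3% and 75.0%, the highest before week 104.
These shares describe the composition and were not tested. The largest were in testis at week 104, where miR-30a-5p made up 86.5% of the family (83.5% to 90.4% over 4 libraries), against 57.9% at week 21.

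**Figure D2:**
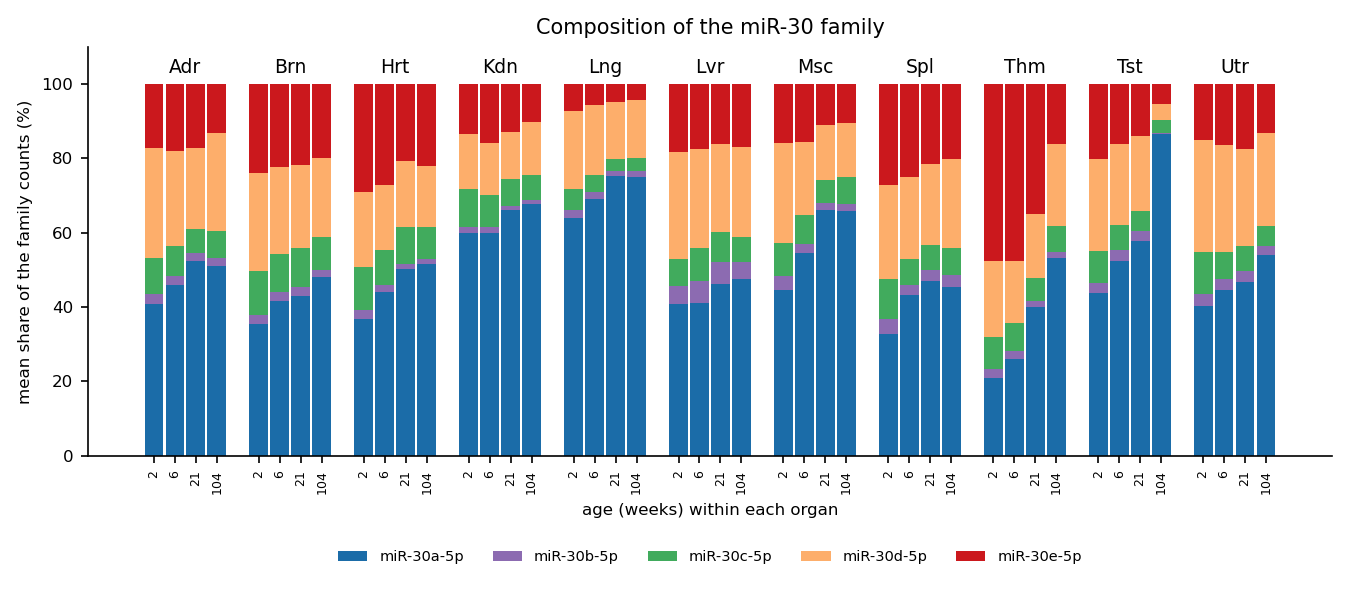
Mean share of each member in the summed counts of the family (%), by organ and by age in weeks. The blue share, miR-30a-5p, is higher at week 21 than at week 2 in each of the 11 organs, and the red share, miR-30e-5p, leads in thymus at weeks 2 and 6 at 47.6% and 47.7%.

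The 3p strands showed which members moved together across organs and ages. miR-30c-1-3p comes from the hairpin beside Mir30e and miR-30c-2-3p from the hairpin beside Mir30a. Both are low, with means of 34.5 and 64.1 CPM and lowest counts of 9 and 12, and they differ from each other at 3 bases. miR-30c-1-3p was highest in thymus (28 to 93 CPM, median 52) and heart (33 to 73 CPM, median 49). miR-30c-2-3p was highest in lung (95 to 234 CPM, median 137) and kidney (79 to 144 CPM, median 102), and thymus was 10th of the 11 organs (8 to 85 CPM, median 12).
Over the means of the 44 groups of organ and age, on a log2 scale, miR-30a-5p and its neighbour miR-30c-2-3p had a Pearson r of 0.93, and miR-30e-5p and its neighbour miR-30c-1-3p had 0.83. The crossed pairs had 0.00 for miR-30a-5p and miR-30c-1-3p and 0.22 for miR-30e-5p and miR-30c-2-3p. These correlations are descriptions over 44 points that share libraries and depth. The ratio of miR-30a-5p to miR-30c-2-3p spanned 4.21-fold over the 44 groups, and that of miR-30a-5p to miR-30c-1-3p spanned 60.3-fold. For miR-30e-5p the spans were 6.28-fold with the neighbour and 51.6-fold with the other hairpin.
miR-30b-5p and miR-30d-5p, whose hairpins are neighbours too, had an r of 0.85 and a ratio that spanned 3.27-fold, while miR-30a-5p and miR-30e-5p, which differ at 1 base but lie on different chromosomes, had an r of 0.32 and a ratio that spanned 39.6-fold. Members of different clusters also had high values, with an r of 0.80 for miR-30c-5p and miR-30d-5p and 0.70 for miR-30a-5p and miR-30d-5p, so a high r was not limited to neighbours. The 2 strands of the same hairpin also varied together, with an r of 0.92 for miR-30a and 0.92 for miR-30e. miR-30a-3p and miR-30e-3p differ from each other at 1 of 22 bases. A read of either 3p strand can thus match both, and how such reads were counted is not given.

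**Figure D3:**
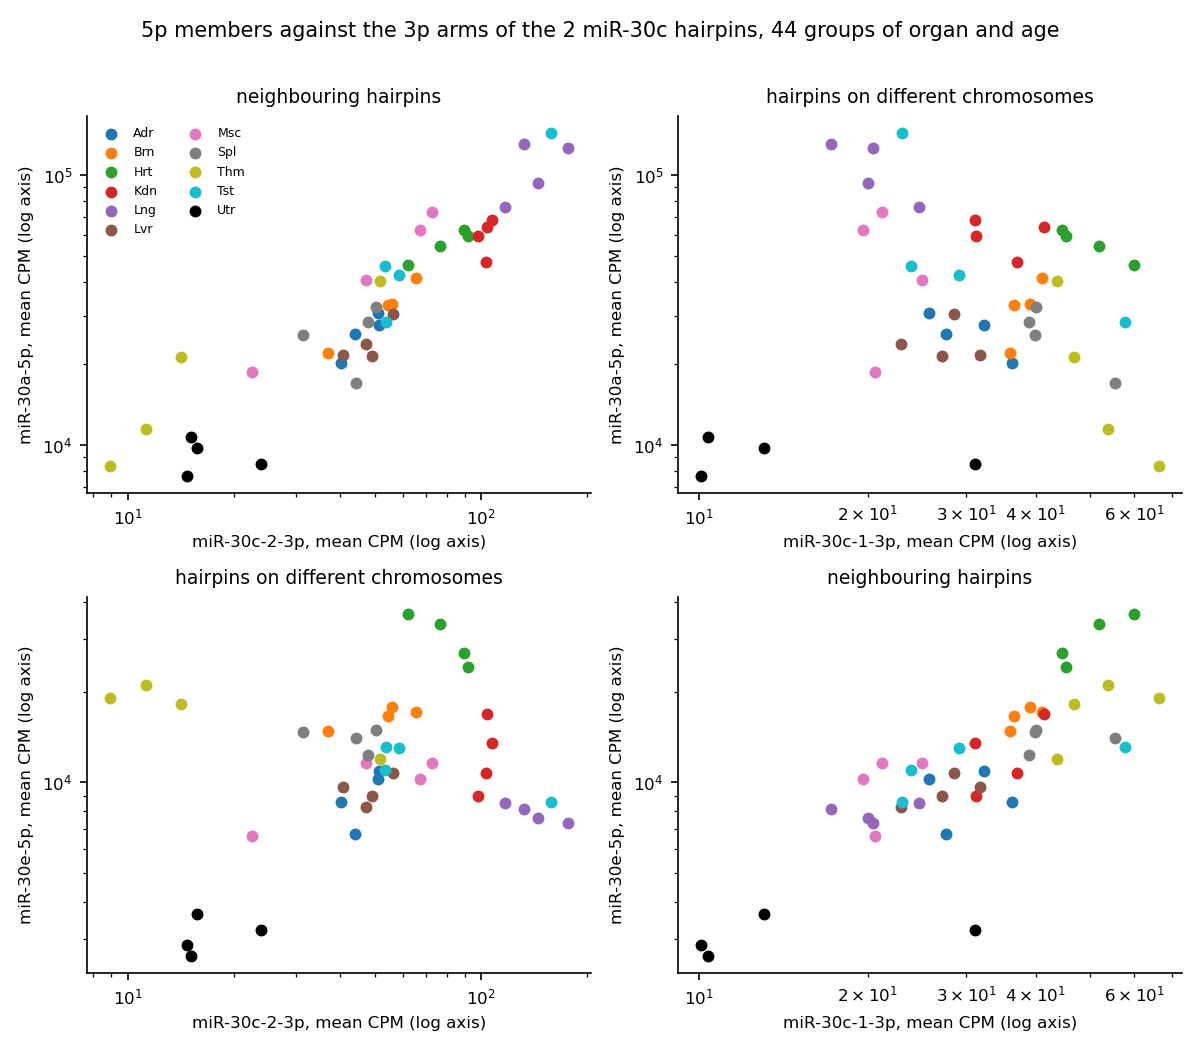
Mean CPM (log axes) of miR-30a-5p and miR-30e-5p against the 3p strands of both miR-30c hairpins, 1 point per group of organ and age (44 points), coloured by organ. Neighbouring hairpins give narrow clouds (r of 0.93 and 0.83) and hairpins on different chromosomes give wide ones (0.00 and 0.22).

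Between weeks 2 and 21, miR-30a-5p rose in every organ by TMM. The increase on the log2 scale was 2.60 ± 0.20 (SE) in skeletal muscle, 1.40 ± 0.17 in thymus, 1.25 ± 0.12 in spleen, 1.16 ± 0.17 in adrenal gland and 1.13 ± 0.13 in lung. It was between 0.61 ± 0.13 in liver and 1.06 ± 0.13 in heart in the other 6 organs. RNA of the youngest spleens was of low integrity by the study's quality check. In spleen, RNA quality and age thus cannot be told apart in any comparison with week 2, changes of shares and ratios included. Over the family, 21 of 55 organ-by-member values were called higher, where 17.5% of all miRNA values were, and 0 were called lower, where 23.2% were. The median member value was 0.43, and the median over all miRNAs was −0.06. These counts depend on scaling, since by library size 9 were called higher and 2 lower (miR-30b-5p in heart and miR-30c-5p in uterus). Scaling by library size moved the median of all miRNAs by −0.06 (thymus) to −0.83 (skeletal muscle) against TMM for these ages, and upper quartile scaling by up to 1.26 (skeletal muscle). miR-30a-5p was above 0 in 11 of 11 organs under each of the 4 settings, and was called in 11 by TMM, 7 by library size, 10 by upper quartile and 10 by DESeq2.
The other members were called in fewer organs by TMM. miR-30e-5p was called in 4 (adrenal gland, brain, skeletal muscle and uterus), miR-30b-5p in 3 (brain, liver and skeletal muscle), miR-30c-5p in 2 (brain and skeletal muscle) and miR-30d-5p in 1 (skeletal muscle). In brain, the calls of miR-30c-5p (0.59) and miR-30e-5p (0.62) were lost without replicate 4 of female brain at week 104, at 0.52 and 0.55 on the log2 scale. That library is in the fit of the organ but in neither age compared. The study reported a far smaller share of miRNA reads in it than in brain samples on average.

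**Figure D4:**
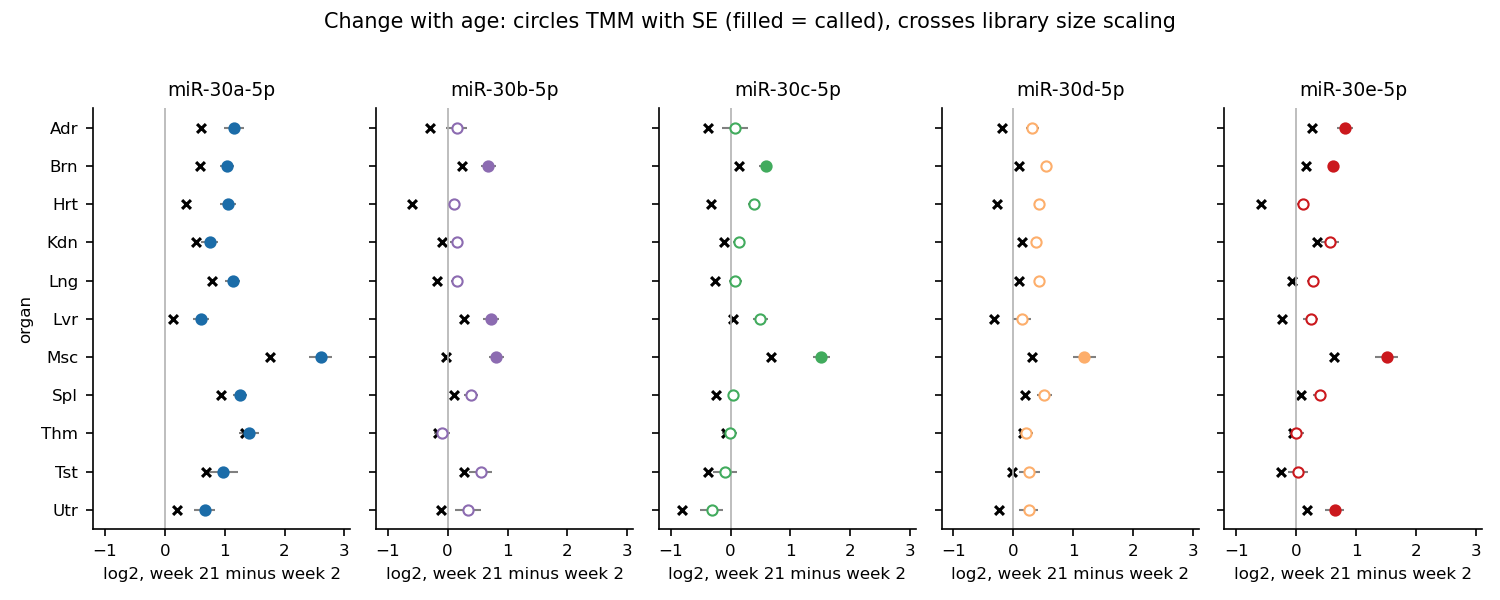
Change of each member from week 2 to week 21 (log2, week 21 minus week 2) in each organ, with circles for TMM scaling (filled where called, bars are SE) and crosses for scaling by library size. All values of miR-30a-5p are above 0 with both scalings, and muscle has the largest change of miR-30a-5p, 2.60 by TMM.

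The steps between ages share the middle groups with each other and with the comparison above. From week 2 to week 6, 9 of 55 values were called higher (background 12%) and 0 lower (background 18.6%), led by miR-30a-5p in skeletal muscle at 1.42, miR-30e-5p in skeletal muscle at 1.10 and miR-30a-5p in spleen, where RNA integrity also differed between these ages, at 1.00 on the log2 scale. From week 6 to week 21, 4 were called higher (background 5.28%) and 0 lower (background 7.62%), led by miR-30a-5p in skeletal muscle at 1.19, in thymus at 0.97 and in lung at 0.65. The lung value was 0.48 by library size and was then not called. From week 21 to week 104, 5 were called higher (background 6.3%) and 2 lower (background 7.45%). They were in thymus, testis, uterus and adrenal gland.

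By TMM, skeletal muscle had the largest increase of miR-30a-5p among the 11 organs. It ranged from 15252 to 24674 CPM with a median of 18095 CPM at week 2, from 29877 to 48283 CPM with a median of 41999 CPM at week 6, from 36104 to 84667 CPM with a median of 63628 CPM at week 21 and from 41640 to 91188 CPM with a median of 79087 CPM at week 104. The libraries of week 2 did not overlap those of any later age. All 5 members were called higher at week 21 than at week 2 by TMM, where 23.4% of all miRNAs in muscle were, with 2.60 for miR-30a-5p, 1.52 for miR-30c-5p, 1.51 for miR-30e-5p, 1.18 for miR-30d-5p and 0.81 for miR-30b-5p. By library size the same values were 1.75, 0.67, 0.64, 0.31 and −0.03, and the first 3 were called. In bulk tissue, more cells of a type and more RNA per cell cannot be told apart. The summed level of both skeletal muscle markers also differed between these ages, from 54384 to 99590 CPM at week 2 and from 106056 to 153462 CPM at week 21, and its part in the result was not tested.
The muscle change was larger than the mean change of the other organs in 1 fit over all organs. The difference was 1.82 for miR-30a-5p (adjusted p = 8.5e-25, edgeR's quasi-likelihood test), 1.64 for miR-30c-5p and 1.36 for miR-30e-5p on the log2 scale, and these 3 were called in 14 of 14 alternative settings. For miR-30d-5p (1.06) and miR-30b-5p (0.75) the difference was called in 9 of 14. These 2 differences depended on scaling, since neither was called by library size or by DESeq2. They were also not called without replicate 1, replicate 2 or replicate 4 of female brain at week 104. Their lowest values over the 14 settings were 0.34 and 0.03. Over all organs 10 of 55 values of the family were called, where 23.5% of all miRNA values were, and the other 5 were −0.60 to −0.70. For those 5 the mean of the other organs includes the large rise in muscle. The count was 5 without replicate 4 of female brain at week 104, and 3 to 11 with each replicate left out in turn.

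In thymus the order of the members turned over with age. miR-30a-5p ranged from 7301 to 9428 CPM at week 2 (median 8297), from 7549 to 18461 CPM at week 6 (median 10983), from 17744 to 28918 CPM at week 21 (median 19766) and from 28809 to 64461 CPM at week 104 (median 37019). miR-30e-5p ranged from 16474 to 24428 CPM at week 2 (median 18320), from 15110 to 23815 CPM at week 6 (median 22063), from 14707 to 21675 CPM at week 21 (median 18110) and from 9212 to 15722 CPM at week 104 (median 11860). miR-30e-5p was above miR-30a-5p in each library of weeks 2 and 6 and below it in each library of week 104. From week 21 to week 104, miR-30e-5p fell by 0.95 ± 0.13 (SE) on the log2 scale (edgeR adjusted p = 1.3e-07). miR-30a-5p rose by 0.59 ± 0.17, but the call was lost without replicate 1 of male thymus at week 104, at 0.43. The neighbour of Mir30a followed, with miR-30c-2-3p at a mean of 14.2 CPM at week 21 and 51.8 CPM at week 104 (log2 difference 1.46 ± 0.18).
Markers of other cells moved over the same ages. The summed level of the 4 lymphocyte markers ranged from 31585 to 50360 CPM at week 21 and from 11598 to 29628 CPM at week 104, and that of the 3 red blood cell markers from 46.0 to 304 CPM and from 301 to 3473 CPM. The 5 epithelial markers summed to a median of 5037 CPM at week 21 and 10300 CPM at week 104, with 978 CPM in 1 library. The part of these markers in the result was not tested.

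In testis the larger change of miR-30a-5p came between weeks 21 and 104. From week 2 to week 21 it rose by 0.97 on the log2 scale by TMM. miR-30a-5p stood at 39397, 45745, 48440 and 49762 CPM in the 4 libraries of week 21 and at 118315, 141467, 146520 and 164081 CPM in those of week 104, so that the ages did not overlap. miR-30d-5p stood at 13797, 16043, 16782 and 17370 CPM at week 21 and at 5763, 7393, 7890 and 7977 CPM at week 104. miR-30b-5p stood at 1669, 1874, 2260 and 2611 CPM at week 21 and at 452, 617, 633 and 750 CPM at week 104. In CPM these 3 members thus moved in opposite directions without overlap. By TMM, miR-30a-5p rose by 3.00 ± 0.27 (SE) on the log2 scale (edgeR adjusted p = 6.3e-08) and by library size by 1.64, and both were called. The other members depended on the scaling, which moved the median of all miRNAs in testis by −1.24. miR-30c-5p was at 1.72 by TMM (called) and 0.41 by library size (not called), and miR-30e-5p at 0.93 by TMM (called) and −0.36 by library size (not called). miR-30d-5p was at 0.17 by TMM (not called) and −1.14 by library size (called lower), and miR-30b-5p at −0.46 by TMM (not called) and −1.78 by library size (called lower).
The 3p strands of testis included miR-30c-2-3p at a mean of 53.7 CPM at week 21 and 157 CPM at week 104, and miR-30c-1-3p at 24 and 23 CPM.
The makeup of these libraries differed widely between the ages. The 3 germ cell markers summed to 149253 to 169950 CPM at week 21 and to 44.4 to 2147 CPM at week 104, and the 4 mesenchyme and smooth muscle markers to 139788 to 221390 CPM and 17811 to 59132 CPM. miR-10b-5p took 54.9% of the counts at week 104. The part of these in the result was not tested.

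**Figure D5:**
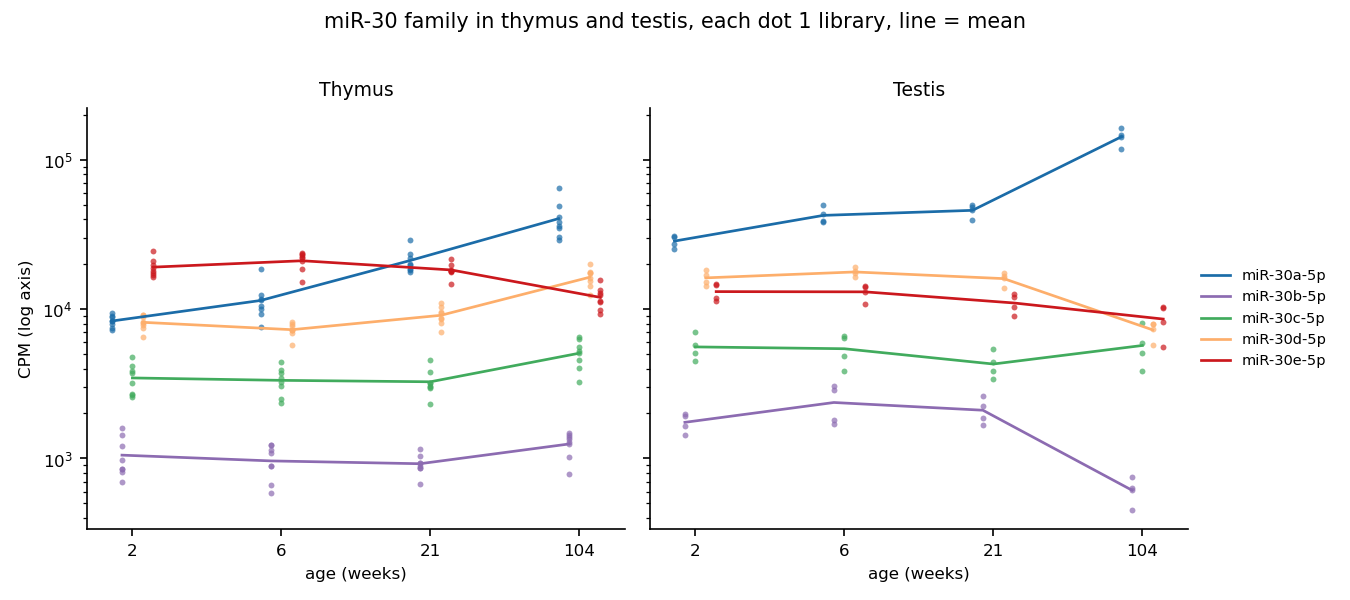
Level of each member in CPM (log axis) by age in weeks in thymus (8 libraries per age) and testis (4 per age), with a dot per library and a line through the means. In thymus miR-30a-5p passes miR-30e-5p between weeks 6 and 21, and in testis miR-30a-5p separates from the other 4 members at week 104.

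The other calls from week 21 to week 104 were miR-30a-5p in uterus, at 0.63 ± 0.18 on the log2 scale by TMM but 0.13 and not called by library size, and miR-30e-5p in adrenal gland, which fell by 0.75 ± 0.13. The adrenal call was lost without replicate 1 of male adrenal gland at week 21, at −0.58. That library stood apart for other members, with miR-30b-5p at 148 CPM, against 829 to 1869 CPM in the other 7 libraries of that organ and age, and miR-30c-5p at 315 CPM, against 2634 to 6203 CPM.

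For the 3p strands, between weeks 2 and 21, 13 of 66 values were called higher and 1 lower by TMM, or 19.7% and 1.52%, where 17.5% and 23.2% of all miRNA values were, so the share called higher was near the background. miR-30c-2-3p was called higher in 6 organs, miR-30a-3p in 4 and miR-30e-3p in 2. miR-30c-1-3p was called higher in skeletal muscle, at 0.81 on the log2 scale, although its mean CPM there was 20.6 at week 2 and 19.6 at week 21, and lower in testis, at −0.99, where its level fell from a mean of 58 to 24 CPM.
Ratios inside a library were compared with exact permutation tests (two-sided, week 21 against week 2, with a Benjamini-Hochberg adjustment over 66 ratios), and 25 passed the adjusted p of 0.05. With 4 libraries per age in testis and uterus, the smallest p such a test allows is 0.0286, which 4 of their 12 ratios reached in the exact test, at an adjusted p of 0.0571. The ratio of miR-30c-1-3p to miR-30c-2-3p fell in 6 organs, by 1.67 on the log2 scale in skeletal muscle, 1.10 in thymus, 0.98 in heart, 0.82 in adrenal gland, 0.69 in lung and 0.56 in brain, and rose in none of those tested. In thymus its mean was 2.82 at week 2, 1.73 at week 21 and −0.21 at week 104, and in lung −2.25, −2.94 and −3.10.
The ratio of the 5p to the 3p strand of miR-30d rose in 7 organs, from 0.46 in thymus to 0.75 in skeletal muscle, and that of miR-30a in 6, from 0.42 in thymus to 1.08 in adrenal gland. That of miR-30e rose in adrenal gland (0.86) and brain (0.45) and fell in heart, by 0.86. In adrenal gland the SD at week 21 was 0.71 for the miR-30a ratio and 1.10 for the miR-30e ratio, against 0.20 and 0.36 at week 2. The adrenal libraries of week 21 include male replicate 1, which stood apart, and the ratios were not tested with that library alone left out. The 5p to 3p ratio of miR-30b rose in liver, by 0.89, and passed in no other organ. The ratio of miR-30b-5p to miR-30d-5p, from neighbouring hairpins, rose in liver, by 0.61, and fell in heart, by 0.32.

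No difference between females and males was called. Of 45 values, 5 members in the 9 organs of both sexes, edgeR called 0 (background 0.812%), with log2 differences (female minus male) of −0.29 to 0.16 and a smallest adjusted p of 0.188. Without adjustment 3 had a p under 0.05. DESeq2 also called 0, with 7 under 0.05 unadjusted. Sex differences at single ages, or of opposite sign between ages, were not tested. Over the 286 libraries of these organs, sex took 6.92% of the variance of miR-30b-5p and 5.04% of that of miR-30c-5p. Libraries within groups took 25.6% and 22.5%. For the other members sex took 1.11% to 1.86%, and for the median miRNA 1.58%. These shares were not tested.

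The SD of the libraries around the mean of their group of organ, sex and age was, on the log2 scale over 318 libraries, 0.17 for miR-30a-5p, 0.19 for miR-30d-5p, 0.22 for miR-30e-5p, 0.31 for miR-30b-5p and 0.32 for miR-30c-5p. Over the 286 libraries of the 9 organs of both sexes, organs took 71.6% of the variance of miR-30a-5p and 75.3% of that of miR-30e-5p, and age within an organ 23.8% and 12.8%. Deviations of the libraries from their group means moved together for miR-30b-5p and miR-30c-5p (Pearson r of 0.90 over 318 libraries), and less so for miR-30a-5p and miR-30b-5p (−0.07). Those libraries share depth and sequencing lanes. The mean deviation of miR-30b-5p ranged over the 8 lanes from −0.22 to 0.22 on the log2 scale, and that of miR-30a-5p from −0.12 to 0.06. The part of the lane in these deviations was not tested.

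miR-384-5p, which shares the seed but not the rest of the sequence, was found mainly in brain. Its mean there was 916 CPM at week 2, 1294 CPM at week 6, 1631 CPM at week 21 and 1676 CPM at week 104. Adrenal gland followed with 11 to 131 CPM and a median of 64 CPM, and the mean was at most 7.84 CPM in every other organ.

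Among 380 miRNAs outside the miR-30 hairpins with a mean of at least 10 CPM, the likeness to the family was measured over the means of the 44 groups. The highest Pearson r with the summed level of the family on the log2(CPM + 1) scale was 0.55 for miR-29c-3p, followed by miR-24-3p and miR-24-2-5p (each 0.54), miR-499-5p (0.54) and miR-208a-3p (0.53). For single members the highest r was 0.56 for miR-30a-5p with miR-24-3p, 0.71 for miR-30b-5p and 0.70 for miR-30d-5p, both with miR-151-5p, 0.69 for miR-30c-5p with miR-499-5p, and 0.65 for miR-30e-5p with miR-185-5p. These points share libraries, and each r was the highest of 380.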

How the data were processed

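Small RNA libraries from total RNA were made with an Illumina TruSeq kit. The authors trimmed reads with fastp 0.23.2, kept those of 16 to 35 bases and mapped them to miRBase with Bowtie 1.3.1, with fewer than 2 mismatches, and deposited a table of raw counts of 616 miRNAs in 320 libraries (genome build rn7, per the labels). Counts were used as deposited. CPM was each count divided by the total of its column.

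Groups came from the labels. Tests used edgeR 4.0.16 in R 4.3.3 (quasi-likelihood, TMM, 1 fit per organ for age and sex, 1 fit per age for organs, and 1 fit over all organs for organ differences in age change), with Benjamini-Hochberg adjustment over all 616 miRNAs within each comparison, and a call needed an adjusted p under 0.05 and a 1.5-fold difference. Organs of the same rat were treated as separate samples. Fits were tested on simulated data. Alternatives were library size and upper quartile scaling, DESeq2 1.42.0, a mean count of at least 10, all 320 libraries, lane as a covariate (taken from the study's sample table), the replicate number as a block, each replicate left out and other thresholds. Leaving out single libraries was added after the data were seen. Ratios used an added count of 0.5. Libraries of a group were never identical, and over the 480 pairs of replicates the chi-square per degree of freedom was at least 15.0. Named values were the 5 members, their 3p strands, miRNAs with the same seed, the 3 largest called rises and falls of each contrast, and the 5 miRNAs most like the family sum with the 1 most like each member. Members, lists and tests were chosen with earlier results of these data known. Counts vary by sampling as well as between rats, and CPM gives no absolute amount.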

Additional observations from a re-analysis of the deposited data

Results flagged for a closer look

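Over 220 groups (5 members, 11 organs and 4 ages, both sexes together), 1 library stood far from the rest in 11, and about 1 in 20 groups is found so by chance, which is also 11 groups. For miR-30a-5p these were male kidney at week 6 replicate 4 (71146 CPM, the nearest other library 65769), male liver at week 104 replicate 1 (21627 CPM, nearest 29298), female spleen at week 104 replicate 1 (15332 CPM, nearest 27060) and male thymus at week 6 replicate 4 (18461 CPM, nearest 12501). For miR-30b-5p it was female brain at week 21 replicate 2 (3441 CPM, nearest 2051). For miR-30c-5p they were female adrenal gland at week 104 replicate 2 (6131 CPM, nearest 4281) and male kidney at week 21 replicate 4 (11917 CPM, nearest 7903). For miR-30d-5p they were the same adrenal library (17858 CPM, nearest 14107) and female brain at week 6 replicate 3 (16758 CPM, nearest 18639). For miR-30e-5p they were male brain at week 104 replicate 1 (14268 CPM, nearest 17063) and male heart at week 6 replicate 1 (26892 CPM, nearest 31858).

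The change from week 2 to week 21 differed between an organ and the mean of the other organs, by edgeR's quasi-likelihood test, in 10 of 55 values. The differences on the log2 scale in skeletal muscle were 1.82 for miR-30a-5p, 1.64 for miR-30c-5p, 1.36 for miR-30e-5p, 1.06 for miR-30d-5p and 0.75 for miR-30b-5p. In heart the difference was −0.68 for miR-30e-5p. In thymus it was −0.64 for miR-30e-5p and −0.62 for miR-30b-5p. In uterus it was −0.60 for miR-30a-5p and −0.70 for miR-30c-5p. The heart value was called in 10 of 14 alternative settings, the thymus values in 11 and 10 and the uterus values in 7 and 9. For these 5 values the mean of the other organs includes skeletal muscle, which had the largest rise. A mean without muscle was not tested. In the fits per organ, the changes themselves were 0.12 in heart, 0.002 and −0.09 in thymus, and 0.67 and −0.32 in uterus. The fit over all organs scaled all libraries together, so its differences need not match those changes.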

How the results depend on the processing

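Of 20 named values under their alternatives, 262 values kept direction and call, 17 kept direction without the call and 1 reversed, miR-30e-5p in testis from week 21 to week 104 (−0.36 by library size). These 20 were picked as the largest called values of each contrast, so they do not stand for all calls. Of all 41 calls between ages, scaling by library size lost 20, 2 of them with the direction reversed, and gained 7. Upper quartile scaling lost 5 and gained 18, and DESeq2 lost 5 and gained 5. Counts of calls also moved. By library size, the rises were 2 from week 6 to 21 and 9 from week 2 to 21, the falls 1 from week 2 to 6, 4 from week 21 to 104 and 2 from week 2 to 21, and the 3p strands had 5 rises and 8 falls. By upper quartile the rises were 17 from week 2 to 6 and 7 from week 6 to 21, with 21 for the 3p strands. DESeq2 gave 2 falls of 3p strands and lane as a covariate 0. The cause of these moves was not tested.

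With the adjusted p alone, the rises were 24, 9, 8 and 34 for weeks 2 to 6, 6 to 21, 21 to 104 and 2 to 21, the falls 1 from week 6 to 21 and 6 from week 21 to 104, the organ differences 21 and the 3p strands 23 rises and 3 falls. With a fold of 2 the rises were 2, 1, 2 and 10, the falls from week 21 to 104 0, the organ differences 4, the 3p strands 5 rises and 0 falls, and the organ pairs 79, 101, 104 and 88 for weeks 2, 6, 21 and 104, and with a fold of 4 the pairs were 10, 21, 22 and 15.

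Leaving out each replicate in turn gave 3 to 5 rises and 2 to 4 falls from week 21 to 104, 3 to 11 organ differences and 1 to 2 falls of 3p strands. Without replicate 1 of male adrenal gland at week 21 the falls from week 21 to 104 were 1, and without replicate 4 of female brain at week 104 the organ differences were 5, both chosen after seeing the data. The brain library is the one for which the study reported a small share of miRNA reads.

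Each rat gave 10 organs, but the labels do not say whether the same replicate number marks the same rat. For deviations from the group means, same-numbered libraries of different organs had a median r of 0.0076, and 25.1% were over 0.1. These values cannot show whether such libraries share a rat, since variation between libraries can hide it. With the replicate block, 20 values were called higher from week 2 to 21, and over all ages 3 of 41 calls were lost and 1 gained, while organ pairs gave 141, 174, 166 and 158 calls. At 517 or more counts per member, counting error was small beside the spread between libraries of a group, which holds differences between rats and between library preparations. The 3p strands, with counts down to 6, were less certain. Levels are shares of a library, so no result tells of absolute amounts.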
